A study of Mus musculus with 4 samples.

Results

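This account concerns 32 genes of the endoplasmic reticulum (ER) and its stress response, out of 31053 genes in the deposited matrices of 2 newborn mouse kidney libraries. They were listed by symbol, and the list was selected on measured values: Hspa5 and Calr had been found higher in all cell types of the floxed library described below. The comparison of the libraries is therefore given as a description, without a test. All 32 symbols were found. By role they fall into 15 ER folding genes, 5 genes of ER-associated degradation, 2 genes of protein translocation, 4 genes for stress sensors and the transcription factor Xbp1, and 6 genes for the transcription factor Atf4 and its known targets.

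The floxed library came from the whole kidney of a newborn mouse with the genotype Six2CreTet2/3f/f, in which Six2Cre acts on floxed alleles of Tet2 and Tet3, 2 genes for enzymes that oxidise 5-methylcytosine. The control library came from the whole kidney of a newborn Six2Cre mouse, so both animals carried the Cre transgene. Six2Cre is active in Six2-positive nephron progenitors, and recombined alleles pass on to the nephron cells that descend from them, whereas stroma, vessels, blood cells and the ureteric bud arise from other cells. There was 1 library of each genotype. Differences thus lack a replicate check, genotype cannot be told apart from animal or preparation, and intervals cover counting error alone. The bisulfite sequencing samples of sorted progenitors were not analysed here.

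The ER folds and modifies proteins that are secreted or placed in membranes. When unfolded proteins build up in it, the sensors encoded by Atf6, Ern1 and Eif2ak3 raise the output of chaperones, of disulphide isomerases and of the machinery that returns misfolded proteins to the cytosol, and Eif2ak3 also slows translation and favours Atf4, whose targets serve amino acid supply and, when stress persists, cell death. Cells with a heavy load of secreted or membrane protein, among them podocytes and tubule cells of the kidney, depend on this system.

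The promoters are shown because the folding genes and the Atf4 genes are known to be driven through different short elements. Promoter sequences of RefSeq (build GRCm38.p6, from 250 bases before to 50 bases after the annotated start) were found for 29 of the 32 genes; Manf, Hyou1 and Atf6 had no entry. Both strands were searched for the ER stress response element (CCAAT, then any 9 bases, then CCACG), its second form (ATTGG, then any base, then CCACG), the unfolded protein response element (TGACGTGG) and an Atf4-type element (TGATGNAA). The ER stress response element was present in 8 of the 29 promoters, namely those of Calr, Canx, Creld2, Dnajc3, Hsp90b1, Hspa5, Pdia6 and Syvn1, and in 0.119% of 32851 RefSeq promoters of the same length. Of 13 folding genes with a promoter, 7 held it, and of 6 genes of the Atf4 group 0 held it. The second form was found in Dnajb11 and Herpud1 (0.0365% of all promoters), the unfolded protein response element in 0 of 29 (0.676%), and the Atf4-type element in Asns, Chac1, Herpud1 and Trib3 (3.97%). A match describes letters and does not show that a factor binds.

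The promoters of 5 folding genes and of 1 Atf4 target are printed 5′ to 3′ on the strand of the gene. Capitals mark the fixed letters of the ER stress response element in the first 5 and of the Atf4-type element in Asns, and an element on the opposite strand appears as its reverse complement. The windows are chr2:34771840-34772139 on the plus strand for Hspa5, chr8:84846882-84847181 on the minus strand for Calr, chr10:86705395-86705694 on the minus strand for Hsp90b1, which has 2 elements, chr12:17266339-17266638 on the plus strand for Pdia6, chr11:50325624-50325923 on the minus strand for Canx, and chr6:7693160-7693459 on the minus strand for Asns.
Hspa5: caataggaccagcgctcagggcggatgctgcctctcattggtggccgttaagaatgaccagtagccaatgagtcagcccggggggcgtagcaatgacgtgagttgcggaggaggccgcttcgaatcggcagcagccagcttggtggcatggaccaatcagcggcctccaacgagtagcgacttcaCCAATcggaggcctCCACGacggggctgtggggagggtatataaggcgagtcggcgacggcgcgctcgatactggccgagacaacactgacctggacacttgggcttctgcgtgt
Calr: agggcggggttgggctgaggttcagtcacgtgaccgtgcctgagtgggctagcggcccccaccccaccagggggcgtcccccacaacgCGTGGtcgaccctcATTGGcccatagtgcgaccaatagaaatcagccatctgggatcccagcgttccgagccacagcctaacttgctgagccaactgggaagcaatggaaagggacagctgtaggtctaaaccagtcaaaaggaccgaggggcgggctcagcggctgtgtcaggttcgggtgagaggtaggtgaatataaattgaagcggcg
Hsp90b1: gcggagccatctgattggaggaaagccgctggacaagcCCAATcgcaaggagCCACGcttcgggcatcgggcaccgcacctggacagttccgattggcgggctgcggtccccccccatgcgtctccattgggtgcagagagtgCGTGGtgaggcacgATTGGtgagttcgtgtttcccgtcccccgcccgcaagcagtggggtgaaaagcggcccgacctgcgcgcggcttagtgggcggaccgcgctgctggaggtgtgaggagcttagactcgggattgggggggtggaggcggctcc
Pdia6: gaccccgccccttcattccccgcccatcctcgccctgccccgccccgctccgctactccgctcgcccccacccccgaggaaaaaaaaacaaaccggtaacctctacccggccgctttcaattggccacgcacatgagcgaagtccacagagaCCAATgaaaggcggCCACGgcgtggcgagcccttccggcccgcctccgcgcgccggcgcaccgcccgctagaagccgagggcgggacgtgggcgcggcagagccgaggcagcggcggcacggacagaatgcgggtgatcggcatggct
Canx: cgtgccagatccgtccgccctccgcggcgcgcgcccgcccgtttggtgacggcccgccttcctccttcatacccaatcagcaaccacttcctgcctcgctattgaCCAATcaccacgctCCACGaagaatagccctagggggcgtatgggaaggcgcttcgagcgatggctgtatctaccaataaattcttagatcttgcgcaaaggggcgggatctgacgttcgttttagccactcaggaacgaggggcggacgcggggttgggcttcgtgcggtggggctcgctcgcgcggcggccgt
Asns: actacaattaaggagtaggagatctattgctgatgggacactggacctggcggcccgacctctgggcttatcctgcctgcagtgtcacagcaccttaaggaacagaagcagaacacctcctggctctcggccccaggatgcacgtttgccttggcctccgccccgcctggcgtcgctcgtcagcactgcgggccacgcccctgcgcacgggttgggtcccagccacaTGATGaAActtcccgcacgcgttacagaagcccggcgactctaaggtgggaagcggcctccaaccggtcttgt

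There were 22543 barcodes in the floxed and 25736 in the control matrix, with 115427704 and 197745868 UMIs (unique molecular identifiers, each a tag of an RNA molecule). The 2 matrices shared 174 barcode sequences, which is 0.772% of the floxed and 0.676% of the control barcodes. Filtering left 14393 floxed cells (median 4781 UMIs) and 19493 control cells (median 5993 UMIs). They formed 29 clusters, of which 23 could be named from marker genes and were joined into classes, and 12 classes with at least 100 cells in each library were compared. Cells with markers of the loop of Henle or of the distal tubule are called loop/distal-like, and those with markers of the ureteric bud or the collecting duct ureteric bud-like. Levels are in CPM, with the UMIs of every class scaled to the same total. Tet3 stood at 41.0 CPM in floxed and 89.7 CPM in control nephron progenitor-like cells, and in stroma-like cells the levels were 40.7 and 53.3 CPM, but 3′ tags outside a deleted part do not check the genotype. RNA of red cells was more abundant in the floxed library: the sum of 7 erythroid markers was 3551 to 27043 CPM in the 11 other classes of the floxed library, against 863 to 3824 CPM in those of the control, and its part in the results below was not tested.

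The median log2 ratio of the folding genes, floxed over control, was positive in 12 of 12 classes, but in neutrophil-like cells it was only 0.22. There the medians of the members' 95% interval bounds, -0.889 and 1.099, lay on either side of 0. Such bounds are not an interval of the group median. The median of the Atf4 group was below 0 in 6 of the 12 classes. Hspa5 and Calr, whose values were the ground for the list, were the members called higher in the most classes. A gene was called higher or lower in a class when the higher of its levels reached 25 CPM and the 95% interval of the ratio lay wholly beyond 1.5-fold. Of 384 pairs of member and class, 256 reached that level. Of those, 39 were called higher and 0 lower. Over all genes of the 12 classes the same rule called 1.54% of 63906 pairs at that level higher and 1.58% lower. Of the 39 pairs, 36 came from the 15 folding genes, 2 from the Atf4 group, 1 from the sensors and Xbp1, and 0 from the degradation and translocation groups. Because the list was drawn up on this contrast, these counts describe the list and support nothing further.

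**Figure D1:**
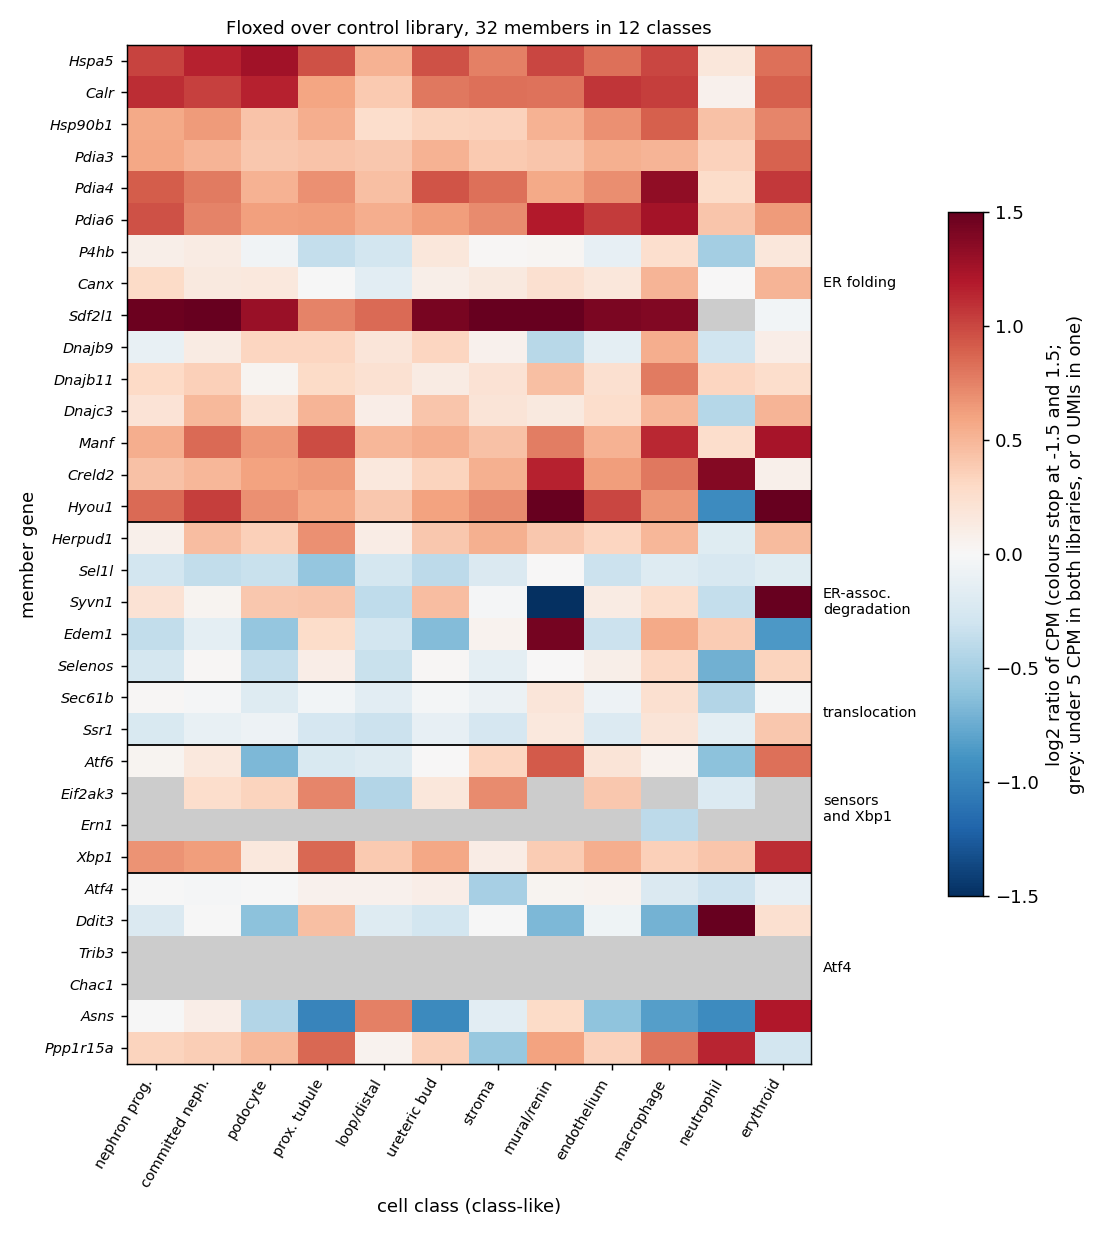
Log2 ratio of floxed over control CPM for the 32 genes (rows, by role) in 12 cell classes (columns), with 1 library per genotype; colours stop at -1.5 and 1.5, and grey marks levels under 5 CPM in both libraries or 0 UMIs in 1 of them. The rows of Hspa5 and Calr are positive in 12 of 12 classes, and the row of Sel1l is negative in 11 of 12.

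Hspa5 encodes BiP, the Hsp70-type chaperone of the ER lumen that also holds the stress sensors inactive. Nephron progenitor-like cells had 516 CPM in the floxed and 255 CPM in the control library, a 2.02-fold ratio (95% interval 1.95 to 2.10). In committed nephron-like cells it stood at 674 and 304 CPM, in podocyte-like cells at 601 and 251 CPM and in proximal tubule-like cells at 697 and 361 CPM. The ratio was 2.39-fold (2.24 to 2.55) in podocyte-like cells and 1.43-fold (1.36 to 1.5) in loop/distal-like cells, where the levels were 490 and 343 CPM. Among these 5 nephron classes, which descend from Six2-positive progenitors, the floxed level was above the control level in each.

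The same direction was seen in classes that do not descend from those progenitors. Hspa5 stood at 507 CPM in floxed and 299 CPM in control stroma-like cells (1.69-fold, 1.65 to 1.74), at 549 and 311 CPM in endothelial-like cells, at 723 and 360 CPM in macrophage-like cells (2.01-fold, 1.85 to 2.18), and at 519 and 268 CPM in ureteric bud-like cells. It stood at 584 and 291 CPM in mural and renin-like cells and at 297 and 168 CPM in erythroid-like cells. Neutrophil-like cells were the exception, with 242 and 215 CPM and an interval that spans 1 (1.13-fold, 0.811 to 1.57), at a total of 330775 UMIs in the floxed and 344526 UMIs in the control library. Within clusters the interval lay above 1 in 28 of 29, and the log2 ratio ran from 0.17 to 1.68, the highest from a cluster with 1 floxed cell.

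The order of the classes by Hspa5 level was not the same in the libraries. In the floxed library macrophage-like cells were highest (723 CPM, Poisson interval 685 to 763), ahead of proximal tubule-like cells (697, 674 to 720) and committed nephron-like cells (674, 657 to 690), and neighbours among these 3 had overlapping intervals. In the control library proximal tubule-like cells (361, 349 to 372), macrophage-like cells (360, 338 to 382) and loop/distal-like cells (343, 329 to 356) were highest, again with overlapping intervals. Podocyte-like cells ranked 4 of 12 in the floxed library (601 CPM) and 10 of 12 in the control (251 CPM). This class differed in make-up: 1 of its 2 clusters held 17 floxed and 349 control cells. In the other, with 571 floxed and 655 control cells, the log2 ratio of Hspa5 was 1.29.

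Calr encodes calreticulin, a calcium-binding lectin chaperone of the ER lumen. It stood at 371 CPM in floxed and 172 CPM in control nephron progenitor-like cells (2.16-fold, 2.07 to 2.25), at 507 and 227 CPM in podocyte-like cells (2.23-fold, 2.08 to 2.39) and at 524 and 249 CPM in endothelial-like cells (2.11-fold, 2.01 to 2.20). The ratio was smaller in proximal tubule-like cells (668 and 442 CPM, 1.51-fold, 1.45 to 1.58) and in loop/distal-like cells (438 and 335 CPM, 1.31-fold, 1.24 to 1.38). In neutrophil-like cells the levels were 136 and 131 CPM. The size rule called Hspa5 higher in 9 and Calr in 7 of 12 classes. Among the genes with at least 100 CPM, 800 in erythroid-like to 1700 in podocyte-like cells, the ratios were ranked from the top. The median rank over the 12 classes was 22.5 for Hspa5 (4 to 324) and 23.0 for Calr (7 to 438). Both genes were the ground for the list because of this ratio, so their ranks are descriptions only.

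**Figure D2:**
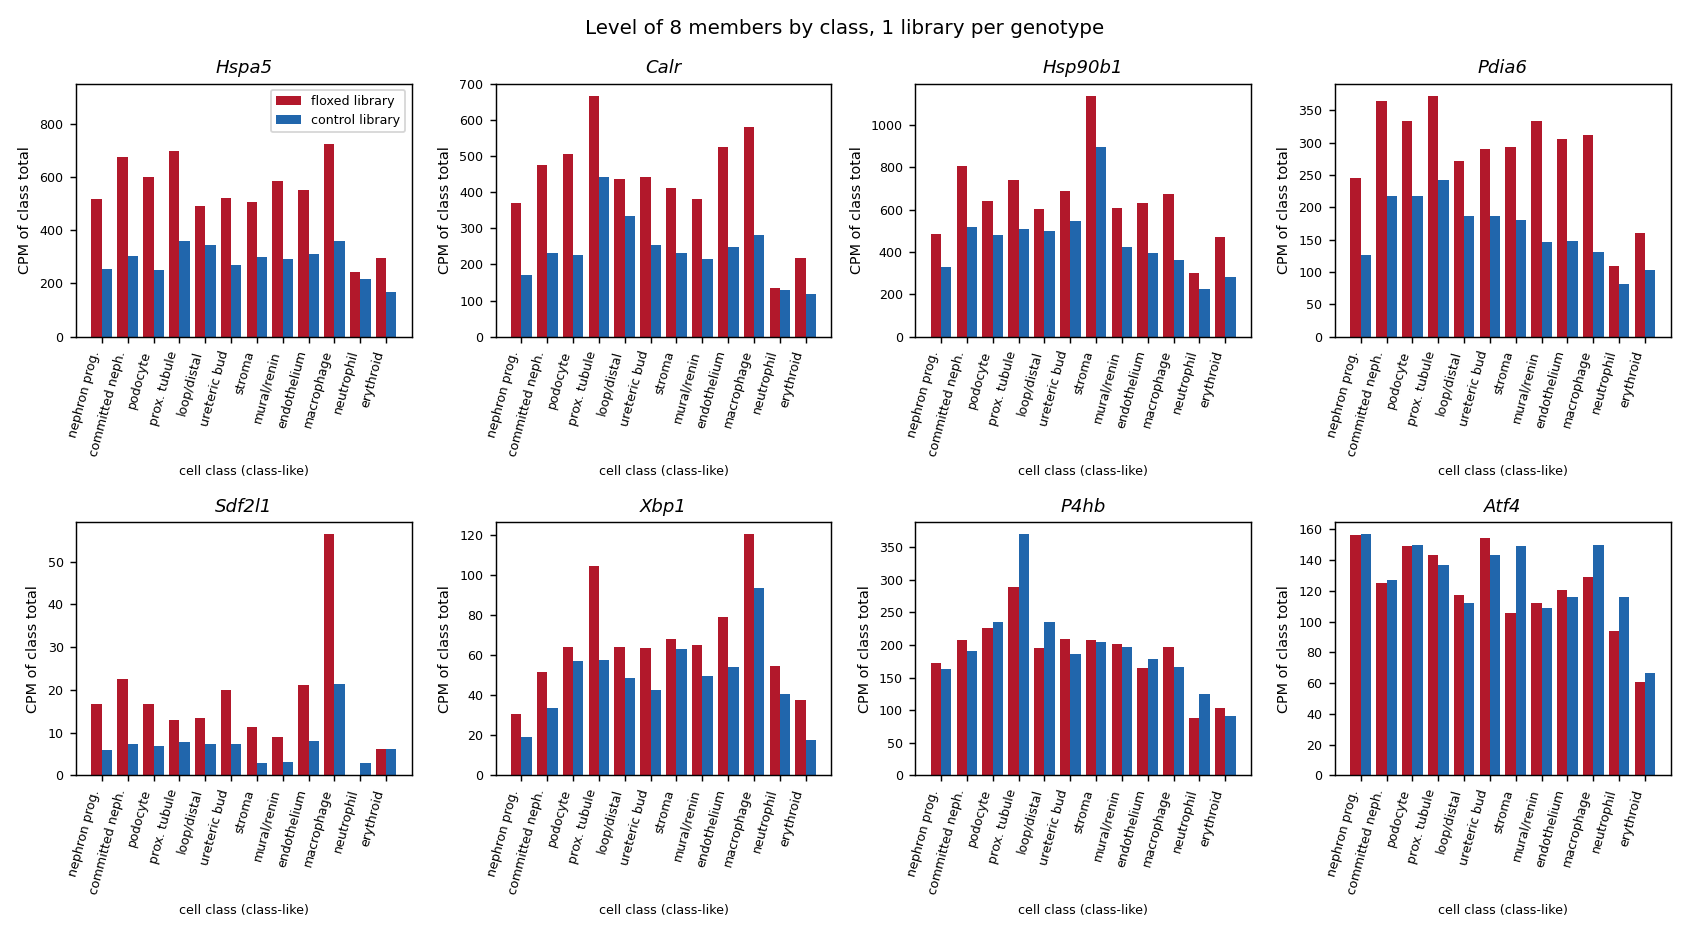
Level in CPM of 8 of the genes in 12 cell classes, with the floxed library left of the control; bars are levels pooled over the cells of 1 library, without error bars since there are no replicates. Hspa5 bars of the floxed library exceed those of the control in 12 of 12 classes, whereas Atf4 bars differ mainly in stroma-like cells (106 and 149 CPM).

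The disulphide isomerases did not move alike. Pdia6 stood at 245 CPM in floxed and 127 CPM in control nephron progenitor-like cells (1.94-fold, 1.84 to 2.04), at 312 and 132 CPM in macrophage-like cells (2.37-fold, 2.08 to 2.71) and at 305 and 148 CPM in endothelial-like cells (2.07-fold, 1.95 to 2.20), and was called higher in 6 classes. Pdia4 stood at 79.9 and 42.6 CPM in nephron progenitor-like cells and in stroma-like cells at 79.8 and 44.8 CPM, and was called higher in 5 classes. Pdia3, which works with calreticulin on glycoproteins, had log2 ratios between 0.34 and 0.89 and was called in 0 classes. P4hb, a disulphide isomerase that is also a subunit of prolyl 4-hydroxylase, stood at 173 and 162 CPM in nephron progenitor-like cells and in proximal tubule-like cells at 289 and 369 CPM, with intervals above 1 in 4 classes and below 1 in 3.

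Among the large chaperones, Hsp90b1, the Hsp90 form of the ER, stood at 485 CPM in floxed and 326 CPM in control nephron progenitor-like cells (1.49-fold, 1.44 to 1.54). It stood at 673 and 362 CPM in macrophage-like cells (1.86-fold, 1.71 to 2.02). Canx, the membrane-bound lectin chaperone that resembles calreticulin, stood at 171 and 141 CPM in nephron progenitor-like cells, and in loop/distal-like cells at 240 and 267 CPM. Its log2 ratios ran from -0.15 to 0.51, against 0.06 to 1.16 for Calr, although both promoters hold the ER stress response element. Hyou1, a large Hsp70-type exchange factor, stood at 19.5 and 10.8 CPM in nephron progenitor-like cells; it reached 25 CPM in mural and renin-like cells alone, from 13 floxed and 7 control UMIs.

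The smaller folding factors differed widely. Sdf2l1, which binds ER chaperone complexes, stood at 11.4 CPM in floxed and 2.89 CPM in control stroma-like cells (3.93-fold, 3.13 to 4.95, from 254 and 111 UMIs), at 16.8 and 6.03 CPM in nephron progenitor-like cells and in macrophage-like cells at 56.3 and 21.5 CPM, the 1 class in which it reached 25 CPM. Manf, a secreted protein that the ER retains, stood at 152 and 104 CPM in nephron progenitor-like cells, at 238 and 121 CPM in proximal tubule-like cells and at 233 and 106 CPM in macrophage-like cells, and was called higher in 4 classes. Creld2, another ER-resident protein of the stress response, stood in stroma-like cells at 25.9 and 17.9 CPM. The co-chaperones of BiP had lower ratios: Dnajb11 stood at 50.3 and 41.0 CPM, Dnajc3 at 61.8 and 53.5 CPM and Dnajb9 at 38.9 and 42.1 CPM in nephron progenitor-like cells. The interval of Dnajb9 lay above 1 in 4 classes and below 1 in 0.

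Over the folding group, with the members that reached 5 CPM in the higher library, the median log2 ratio was 0.57 in nephron progenitor-like cells (0.51 to 0.64 as medians of the members' interval bounds) and 0.44 in stroma-like cells (0.37 to 0.51). The medians of all genes taken in the same way were 0.05 and 0.01. The highest group median was 0.79, in macrophage-like cells (0.46 to 1.13). Of 7 neutrophil markers, S100a8 stood at 1982 CPM in floxed and 380 CPM in control macrophage-like cells and S100a9 at 1708 and 101 CPM, whereas the other 5 stood at or below 13.4 and 16.9 CPM and Ngp was at 0 UMIs in the floxed library. The 7 summed to 3709 and 504 CPM. In the macrophage-like cluster in which they summed to 108 and 61.0 CPM the folding median was 0.62, and in the one in which they summed to 4780 and 650 CPM it was 0.82. The lowest group median was that of neutrophil-like cells, with 10 genes above and 4 below a ratio of 1. In erythroid-like cells the group median was 0.64 (0.08 to 1.13), but the median of all genes there was 0.28, and scaling with TMM factors lowered every ratio of that class by 0.31. Members called higher are given per class, with the share called higher among all genes that reached 25 CPM in that class in brackets. The 32 members include some below that level. The classes with the most members called higher were macrophage-like cells with 8 of 32 (1.95%) and committed nephron-like cells with 6 (1.42%). Nephron progenitor-like cells (2.16%), stroma-like cells (1.68%), endothelial-like cells (1.36%) and proximal tubule-like cells (2.11%) had 4 each. Ureteric bud-like cells (1.36%) and mural and renin-like cells (0.952%) had 3 each, podocyte-like cells had 2 (1.26%), erythroid-like cells had 1 (2.0%), and loop/distal-like cells (1.43%) and neutrophil-like cells (0.977%) had 0.

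**Figure D3:**
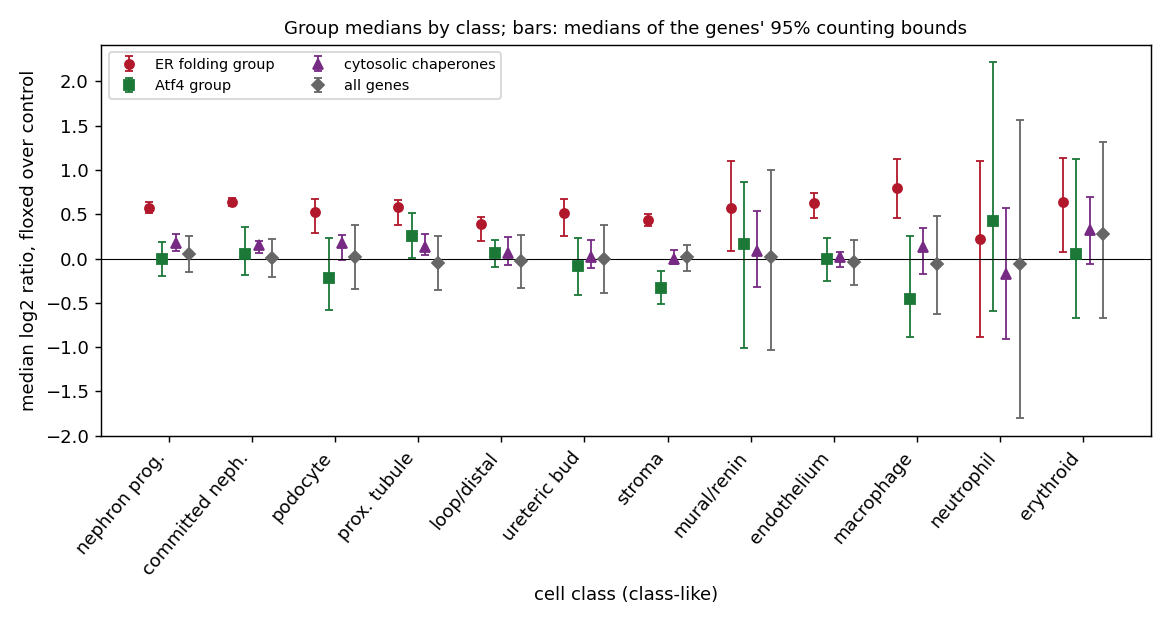
Median log2 ratio of floxed over control for the folding group, the Atf4 group, cytosolic chaperones and all genes in 12 cell classes, over genes with at least 5 CPM in the higher library; the lines span the medians of the members' 95% interval bounds, which cover counting error only. The folding group lies at 0.57 in nephron progenitor-like cells and at 0.44 in stroma-like ones; the Atf4 group lies at -0.01 and -0.33.

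Of the 32 genes, 16 reached 25 CPM in every class, and 8 of them had a ratio above 1 in every class: Hspa5, Calr, Hsp90b1, Pdia3, Pdia6, Dnajb11, Manf and Xbp1. Of 2767 genes at that level in every class, 7.55% had a ratio above 1 throughout. Hspa5 and Calr were the ground for the list because they met this criterion, so the count describes the list and supports nothing further. None of the 16 had an interval above 1 in every class (0 of 16, against 0.578% of the 2767 genes), since the intervals of these 8 spanned 1 in neutrophil-like cells. The interval of Dnajb11 spanned 1 in 5 classes and that of Xbp1 in 3.

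The genes of ER-associated degradation showed no common direction. Herpud1, a membrane protein that assembles the degradation complex, stood at 191 CPM in floxed and 119 CPM in control proximal tubule-like cells (1.61-fold, 1.48 to 1.75) and at 29.5 and 28.0 CPM in nephron progenitor-like cells. Its proximal tubule level was the highest of the 12 classes in both libraries, with an interval that did not meet that of the next class, loop/distal-like cells (79.7 and 73.6 CPM). Sel1l, the adaptor of the ubiquitin ligase encoded by Syvn1, stood at 30.5 and 36.8 CPM in nephron progenitor-like cells, in stroma-like cells at 49.2 and 57.2 CPM and at 40.3 and 60.1 CPM in proximal tubule-like cells. Its ratio was below 1 in 11 of 12 classes, with an interval below 1 in 8 classes and in 15 of 29 clusters. Syvn1 stayed under 25 CPM in every class (8.29 and 7.15 CPM in nephron progenitor-like cells). Edem1, which picks out misfolded glycoproteins, stood at 39.2 and 26.4 CPM in macrophage-like cells and at 6.37 and 8.22 CPM in nephron progenitor-like cells. Selenos, a selenoprotein of the same pathway, stood at 129 and 155 CPM in nephron progenitor-like cells, and its interval lay above 1 in 1 class and below 1 in 4.

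The translocation genes had ratios near 1. Sec61b, a subunit of the translocation channel, stood at 384 CPM in floxed and 380 CPM in control nephron progenitor-like cells and in stroma-like cells at 396 and 421 CPM. Ssr1, a subunit of the translocon-associated complex, stood at 71.3 and 83.6 CPM in nephron progenitor-like cells and in stroma-like cells at 90.0 and 107 CPM. Intervals lay above 1 in 1 and below 1 in 10 of the 24 pairs of these genes and classes. Such counts of intervals, here and for other genes and lists, were not set against the share over all genes of each class.

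Of the sensor group, Xbp1, the transcription factor that Ern1 activates by splicing, was the most often higher. It stood at 104 CPM in floxed and 57.4 CPM in control proximal tubule-like cells (1.82-fold, 1.62 to 2.05), at 30.7 and 19.3 CPM in nephron progenitor-like cells (1.59-fold, 1.38 to 1.83) and in stroma-like cells at 68.2 and 63.2 CPM (1.08-fold, 1.01 to 1.15). The stroma value was -0.03 on the log2 scale when cells were thinned to 2000 UMIs, against 0.11 otherwise. Gene counts of 3′ tags do not tell spliced from unspliced Xbp1 RNA. Atf6 stood at 12.8 and 12.5 CPM in nephron progenitor-like cells and in stroma-like cells at 15.7 and 12.6 CPM, Eif2ak3 at 4.45 and 4.34 CPM and at 7.73 and 4.72 CPM, and Ern1 at 3.14 and 3.42 CPM and at 3.80 and 3.41 CPM.

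By its median, the Atf4 group did not share the pattern of the folding genes. Its member Ppp1r15a, described below, had a ratio above 1 in 10 of 12 classes. The interval of Ppp1r15a lay above 1 in 8 classes and below 1 in 1. Atf4 stood at 156 CPM in floxed and 157 CPM in control nephron progenitor-like cells (0.999-fold, 0.945 to 1.06) and at 149 CPM in podocyte-like cells of both libraries. In stroma-like cells it stood at 106 and 149 CPM, a ratio of 0.709 (0.676 to 0.744). Stroma was the 1 class of 12 in which the interval of Atf4 excluded 1, and all 5 stroma-like clusters had intervals below 1, with log2 ratios from -0.61 to -0.28. Over the 11 classes in which Atf4 reached 100 CPM, its median rank from the top among the genes at that level was 784. These are RNA levels, and Atf4 is known to be set largely by translation, which was not measured.

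Ppp1r15a, which encodes the phosphatase subunit that lets translation resume, differed in direction between classes. It stood at 60.8 CPM in floxed and 90.2 CPM in control stroma-like cells (0.674-fold, 0.633 to 0.718), against 69.1 and 38.0 CPM in proximal tubule-like cells (1.82-fold, 1.57 to 2.10), 229 and 132 CPM in macrophage-like cells (1.74-fold, 1.51 to 2.00) and 175 and 125 CPM in podocyte-like cells (1.40-fold, 1.26 to 1.56). Its levels in nephron progenitor-like cells were 99.8 and 79.1 CPM (1.26-fold, 1.17 to 1.36). All 5 stroma-like clusters had intervals below 1, with log2 ratios from -0.80 to -0.36. The ratio was above 1 in 21 of 29 clusters, with an interval above 1 in 15. The difference between classes was not tested.

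**Figure D4:**
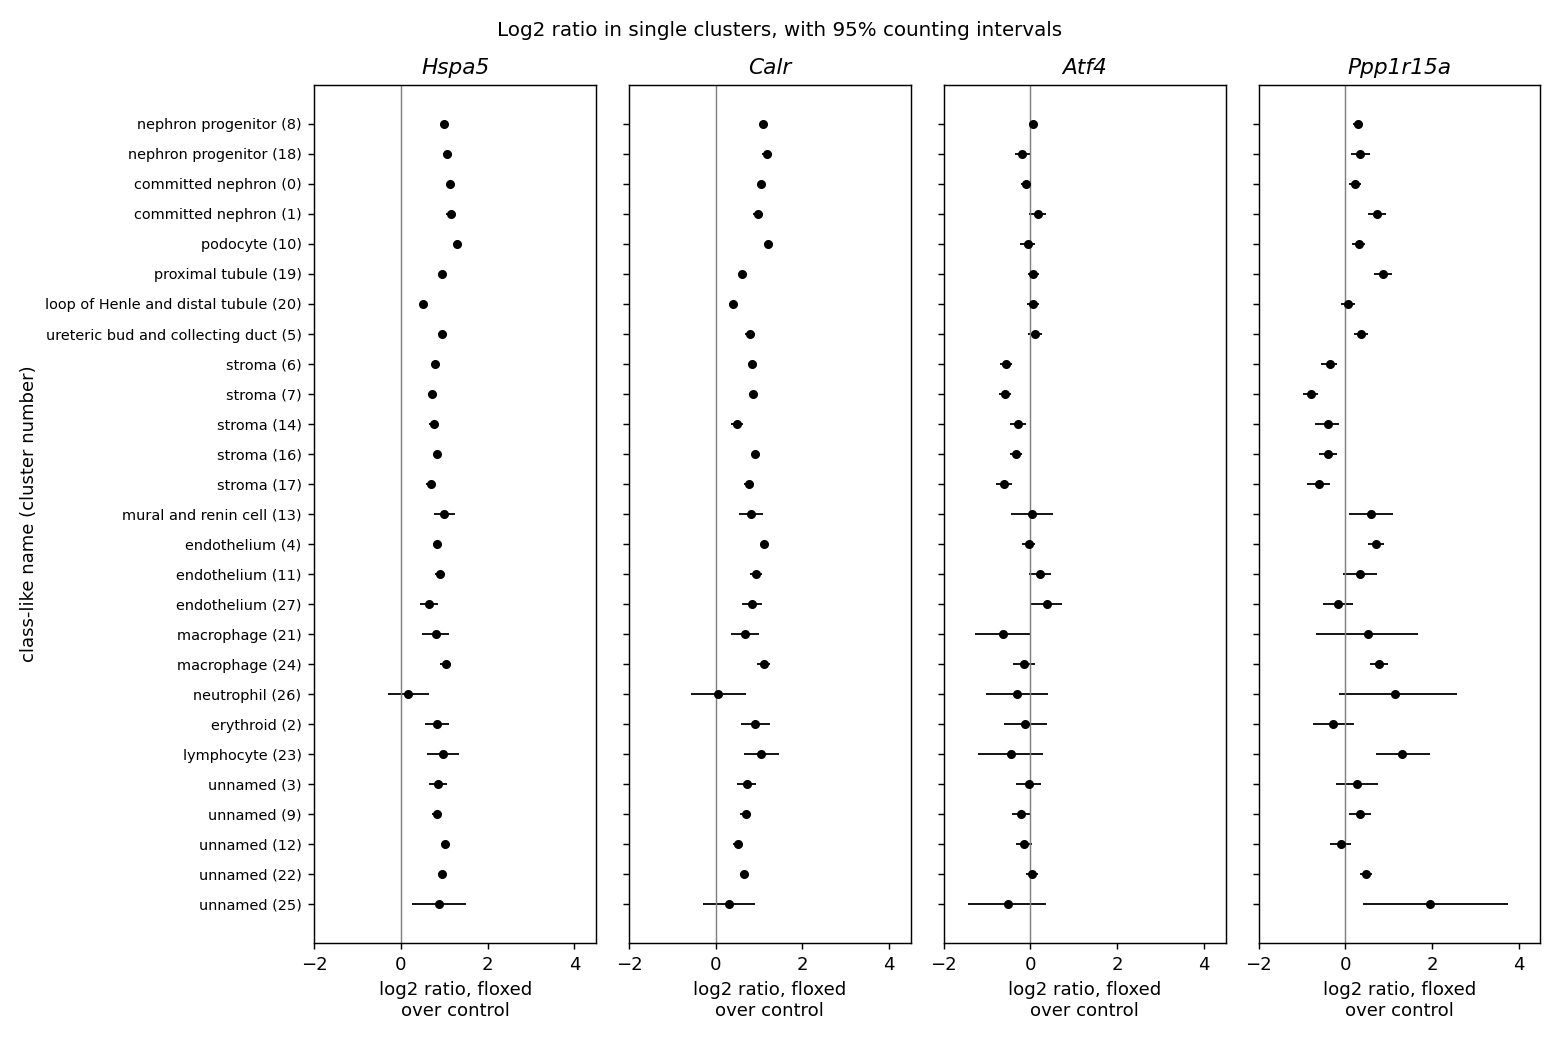
Log2 ratio of floxed over control for Hspa5, Calr, Atf4 and Ppp1r15a in the 27 clusters with at least 20 cells in each library, with 95% counting intervals; each point is 1 cluster, named by its class where it has a name. Hspa5 lies above 0 in 27 of 27 clusters, whereas Ppp1r15a lies below 0 in the 5 stroma-like clusters.

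Immediate early genes, which respond to tissue dissociation among other stimuli, also differed between the libraries. A list of 11 (Fos, Fosb, Jun, Junb, Egr1, Ier2, Ier3, Dusp1, Zfp36, Nr4a1 and Btg2), drawn up after the values of Ppp1r15a had been seen, summed to 1937 CPM in floxed and 4166 CPM in control stroma-like cells, and all 11 had an interval below 1. In nephron progenitor-like cells it summed to 2015 and 3984 CPM, with 10 intervals below and 1 above 1. In proximal tubule-like cells it summed to 2993 and 2549 CPM, with 7 above and 3 below, and in podocyte-like cells to 5401 and 4945 CPM, with 5 above and 3 below. In macrophage-like cells it summed to 6893 and 7340 CPM, with 3 above and 7 below. Ppp1r15a differed in the same direction as this sum in stroma-like, proximal tubule-like, podocyte-like, endothelial-like, neutrophil-like and erythroid-like cells. The direction was opposite in nephron progenitor-like, macrophage-like, committed nephron-like, loop/distal-like, ureteric bud-like and mural and renin-like cells. The interval of Ppp1r15a spanned 1 in 3 of the 12 classes. The part of the early genes' stimulus in the values of the 32 genes was not tested.

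Of the remaining Atf4 targets, Ddit3, which encodes the pro-apoptotic factor CHOP, stood at 24.3 CPM in floxed and 28.2 CPM in control nephron progenitor-like cells (0.864-fold, 0.750 to 0.993), in stroma-like cells at 21.0 and 21.2 CPM and at 24.0 and 36.7 CPM in podocyte-like cells (0.654-fold, 0.502 to 0.845). Asns, asparagine synthetase, whose promoter is printed above, stood at 11.3 CPM in both libraries in nephron progenitor-like cells and in ureteric bud-like cells at 6.36 and 12.3 CPM (0.516-fold, 0.306 to 0.841). Trib3, a pseudokinase that restrains Atf4, was represented by 72 floxed and 121 control UMIs over all kept cells, and Chac1, which degrades glutathione, by 18 and 41. At this depth no difference in either gene was detectable in any class. The group median in stroma-like cells was -0.33 (-0.51 to -0.15) over the 4 members that reached 5 CPM.

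Cells with more Hspa5 also held more UMIs of the other folding genes. Cells were thinned to 2000 UMIs, which kept 1622 of 1654 floxed and 2674 of 2696 control nephron progenitor-like cells and left out shallower ones. In the floxed library the 14 other folding genes summed to 3.90 ± 2.23 UMIs (mean ± SD over 661 cells) in cells with 0 Hspa5 UMIs and to 5.05 ± 2.79 (160 cells) in cells with 3 or more. In the control library they summed to 2.79 ± 1.79 (1677 cells) and 3.46 ± 2.25 (52 cells). The means lay further apart in floxed macrophage-like cells, from 4.55 ± 2.95 UMIs (100 cells) at 0 Hspa5 UMIs to 8.47 ± 4.14 (62 cells) at 3 or more, against 3.08 ± 2.21 (212 cells) and 3.65 ± 2.06 (20 cells) in control macrophage-like cells. Thinning kept only 317 of 522 floxed and 418 of 644 control macrophage-like cells. It left out most of the macrophage-like cluster with median depths of 1414 floxed and 1552.5 control UMIs. Of neutrophil-like cells it kept 51 of 135 floxed and 68 of 116 control ones. Floxed cells with 0 Hspa5 UMIs had a higher mean of the other folding genes than control cells with 3 or more in 4 of the 12 classes, namely nephron progenitor-like, stroma-like (5.80 and 5.58), podocyte-like (5.19 and 5.15) and macrophage-like cells, and a lower mean in the other 8. The 6 genes of the Atf4 group summed to 0.566 and 0.594 UMIs in floxed nephron progenitor-like cells with 0 and with 3 or more Hspa5 UMIs, and to 0.501 and 0.596 UMIs in control cells. In macrophage-like cells they summed to 0.69 and 1.097 UMIs in the floxed library and to 0.533 and 1.1 UMIs in the control. Cells are not replicates, and these means are descriptions.

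**Figure D5:**
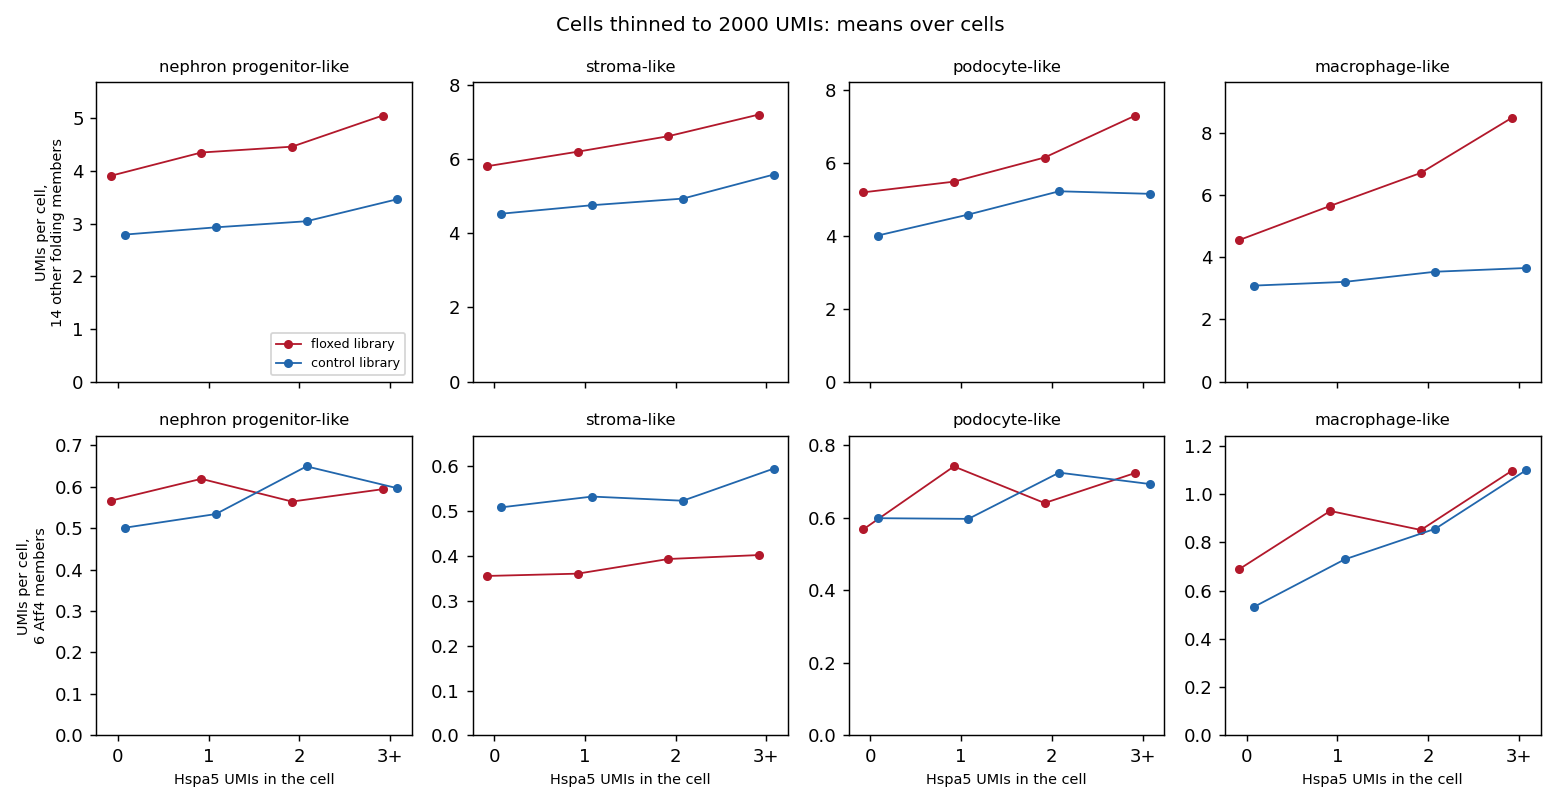
Mean UMIs per cell of the 14 other folding genes (upper row) and of the 6 Atf4 group genes (lower row) against the Hspa5 UMIs of the cell, in cells thinned to 2000 UMIs; points are means over cells of 1 library, without error bars, and SDs over cells for nephron progenitor-like and macrophage-like cells are in the text. In nephron progenitor-like cells the upper row runs from 3.90 to 5.05 in the floxed and from 2.79 to 3.46 in the control library.

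Across the 25 clusters with at least 100 cells in each library the members did not follow Hspa5 equally. In the floxed library the level of Pdia6 had the rank order most like that of Hspa5 (Spearman's rho 0.93), followed by Calr (0.79) and Pdia4 (0.79); in the control library the closest were Dnajc3 (0.74), Pdia3 (0.73) and Calr (0.71). The order most like that of Atf4 belonged to Dnajb9 in the floxed library (0.79) and to Ddit3 in the control (0.62). The clusters share a library and differ in depth, so these coefficients are descriptions.

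Genes of the same pathways that are not among the 32 were counted in nephron progenitor-like and stroma-like cells. Of all genes that reached 25 CPM in the class, 1.37% were called lower in nephron progenitor-like cells and 1.92% in stroma-like ones. Of 20 other ER folding and glycoprotein genes in the matrices, 0 were called in either class and direction, and their median log2 ratios were 0.24 and 0.19. Fkbp14, a prolyl isomerase of that list, stayed below the level of the rule, at 21.2 CPM in floxed and 8.95 CPM in control nephron progenitor-like cells (log2 ratio 1.24, 0.98 to 1.51). Of 9 oligosaccharyl transferase genes the medians were 0.02 and -0.04, of 15 other translocation genes 0.11 and 0.12, and of 13 other degradation genes 0.11 and 0.15, with 0 genes called. Of 12 other sensors and transcription factors the medians were 0.11 and 0.03, and 1 was called, Eif2ak2, the interferon-induced kinase of the same translation factor, in stroma-like cells at 23.9 and 39.7 CPM. Of 32 other Atf4 targets and amino acid response genes the medians were 0.11 and -0.02, and 1 was called, Atf3, a stress-induced transcription factor, in stroma-like cells at 7.96 and 25.3 CPM (log2 ratio -1.67, -1.91 to -1.44). Among 20 cytosolic chaperones the medians were 0.18 and -0.0046, and 1 was called, Hsph1, an Hsp110-type chaperone, at 27.4 and 12.8 CPM in nephron progenitor-like cells (log2 ratio 1.09, 0.87 to 1.32).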

How the data were processed

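Per the labels' protocols, newborn kidneys were digested, debris and dead cells were taken out, and 10000 cells per library went onto a droplet system with 3′ chemistry. The authors deposited whole-number UMI counts per gene and barcode, made with Cell Ranger 6.0.2 against mm10 per the submitters' processing notes (6.0.1 per the file headers). The matrices hold more barcodes than cells loaded.

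Kept barcodes had at least 1000 UMIs, 500 genes and under 15% mitochondrial UMIs (15645 floxed, 21188 control). The automatic threshold of scrublet (scanpy 1.11.5) marked 0 barcodes in either library, so the 8% with the highest scores were removed (1252 and 1695). Median mitochondrial shares were 7.06% and 6.45%. Leiden clustering (resolution 1, 30 components, 15 neighbours, 2000 variable genes without the ER genes on the lists) gave 29 clusters, named from marker lists; 6 stayed unnamed. The score thresholds, and the rules that left a shallow cluster and a cluster led by genes of another class unnamed, were set after the clusters had been seen. Counts were summed per class and library. Ratios have exact conditional binomial 95% intervals; no p-values were computed, since each genotype had 1 library. The interval and the size rule were checked on simulated Poisson counts, which hold no spread between cells or animals.

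The text names all 32 genes and, of the other lists, genes past the size rule in nephron progenitor-like or stroma-like cells. Fkbp14, the early genes, the neutrophil markers, Tet2 and Tet3 were added after their values were seen. The genes, lists and rules were chosen with earlier results of these data known. Alternatives covered scaling (edgeR 4.0.16 TMM), cell weights, filters, doublets, clustering and depth. The software was R 4.3.3 and, under Python 3.11.15, igraph 0.11.9, pandas 2.3.3, scipy 1.17.1 and numpy 2.4.6.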

Additional observations from a re-analysis of the deposited data

Results flagged for a closer look

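Ppp1r15a is listed because its ratio had opposite directions in classes of the same pair of libraries, with counting intervals wholly beyond a limit 25% past equality on either side. The log2 ratio of floxed over control was 0.797 in macrophage-like cells, 0.486 in podocyte-like cells and 0.863 in proximal tubule-like cells, and -0.569 in stroma-like cells. That limit was set after the values had been seen, and the difference between the classes was not tested.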

How the results depend on the processing

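With a size limit 25% past equality in place of 1.5-fold, 84 pairs of member and class were called higher and 3 lower, against 39 and 0. The share over all genes is given for the 1.5-fold limit only, so the larger counts have no background beside them. The median log2 ratio of the folding group in stroma-like cells was 0.525 with the 10000 deepest barcodes of each library, against 0.437, and the cause was not tested. Xbp1 in stroma-like cells turned to -0.027 in cells thinned to 2000 UMIs. These were the 3 moved values among 68 that answer a comparison, and the 1 reversal among 786 others, of which 753 stayed within their counting intervals and 32 moved in size. Neutrophil-like cells had too few cells under the deepest barcodes, and no ureteric bud-like class formed at Leiden resolution 0.5, so these have no value. No paired analysis was possible because each genotype had 1 library. Depth limits neutrophil-like and mural and renin-like cells most, and Chac1, Trib3, Ern1 and Eif2ak3 in every class.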
